A study of Mus musculus with 14 samples.

Results

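The RNA of a mouse testis cell line was compared with the RNA of 7 other adherent mouse cell lines, measured on two-colour spotted arrays. The adherent lines were those that the labels do not assign to blood cells: testis, mammary tumor, fibroblast, embryo fibroblast, myoblast, kidney, liver and skin. They account for 10 of the 14 arrays and 8 of the 11 lines of the series, and testis has 1 array. The macrophage, myeloma and T-cell lymphoma lines (4 arrays) were left out of the comparison. For each probe the difference is the testis log2 ratio minus the mean of the 7 other lines, each with equal weight, after the median of each array was set to 0 and the arrays of a line were averaged.

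The title of the series poses the question of what each cell line adds to a universal mouse reference RNA, a mixture of RNA from cultured mouse cells. On every array the total RNA of 1 line, in Cy5, was hybridised against the mouse reference sold by Stratagene, in Cy3, without any dye swap. The testis, embryo fibroblast, myoblast, kidney, liver and skin lines had 1 array each, and the mammary tumor and fibroblast lines had 2 each. No treatment, genotype, strain or age is given for any line. The reference of mammary tumor array 1 has 3 more letters in its name (MRR), and the labels leave unsaid if this is a different pool. The titles call every sample a cell line, while a short annotation calls it primary tissue, and the wording of the titles is used here. The labels do not name the testis line or the cell of the testis it came from. With 1 array, a testis value has no replicate check, and no label states that the paired arrays hold RNA of independent cultures. The p-values therefore reflect spread between arrays, possibly technical.

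The testis holds germ cells and several kinds of somatic cell. Sertoli cells line the seminiferous tubule, nurse the germ cells and seal the tubule with tight junctions, Leydig cells between the tubules make testosterone from cholesterol, and peritubular myoid cells are contractile cells around the tubule. Gata6 and Wt1 encode zinc finger transcription factors of gonadal somatic cells, and Wt1 is needed for the gonad and kidney to form and is also a marker of mesothelium. Cxadr encodes the coxsackievirus and adenovirus receptor, an adhesion molecule of epithelial and Sertoli cell junctions.

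The base and sign of the deposited values are unstated. An equal mixture of the lines would give a mean unlogged ratio of line to pool of 1 at every probe. With the values taken as log2 of the line divided by the pool, this mean had a median of 1.003, against 1.20 when the sign was reversed, and 0.923 against 3.11 for the tenth of probes with the most variation. Natural logs gave 1.07 and 1.18, so base 2 is an assumption that underlies each fold. Array medians before centring ran from -0.51 (embryo fibroblast) to 0.13 (skin), and the testis median was -0.15. Over 7497 features with a value in all 8 lines, the median of the differences was 0.04. Precision is limited by how few arrays there are.

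Of these 7497 features, 2 passed a Benjamini-Hochberg adjusted p of 0.05 in limma (0.0267% of those tested). The gene Fmod was higher in the testis line (0.0133%), and an unnamed probe was lower (0.0133%). At an unadjusted p under 0.05 there were 852 features (11.4%), of which 436 were higher and 416 lower. At an adjusted p under 0.1, a threshold chosen after the values were seen, 40 features were higher (0.534%) and 13 lower (0.173%). The count of calls moved with single arrays. It was 0 when either mammary tumor array or either myeloma array was left out, 31 without fibroblast array 1 and 25 without fibroblast array 2. Quantile normalization gave 33 calls (20 higher, 13 lower), and removal of the trend along the probe number gave 25 (17 higher, 8 lower). Fmod and the unnamed probe were among the calls in all 7 alternatives that made any. Because most genes named here did not pass, they are given by their values and not as changes.

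All 3 markers lay above each of the 7 other lines on the testis array. Gata6 had a log2 ratio of 2.01 on the testis array, against -2.73 and -1.96 on the mammary tumor arrays, -2.47 and -2.78 on the fibroblast arrays, -2.41 in embryo fibroblast, -1.59 in myoblast, 0.61 in kidney, -0.89 in liver and -2.56 in skin. Only the kidney line came within 2 log2 units of the testis value, and the difference from the mean of the 7 lines was 3.70 ± 0.41 (SE), a 13.0-fold ratio, with a limma adjusted p of 0.0588. Wt1 had a log2 ratio of 1.87 on the testis array, against -1.999 and -2.19 on the mammary tumor arrays, -1.25 and -1.92 on the fibroblast arrays, -1.53 in embryo fibroblast, -2.62 in myoblast, -2.35 in kidney, -2.19 in liver and -1.97 in skin. The 9 other arrays spanned a narrow range below the reference, and the difference was 3.92 ± 0.46 (15.1-fold, adjusted p 0.0588). Cxadr had a log2 ratio of 3.49 on the testis array, against -2.46 and -2.28 on the mammary tumor arrays, -3.39 on fibroblast array 1, -2.71 in embryo fibroblast, -3.95 in myoblast, 1.40 in kidney, 1.33 in liver and -2.38 in skin. Testis, kidney and liver were above the reference and the 5 other lines were more than 2 log2 units below it. The Cxadr difference was 5.22 ± 0.61 (37.2-fold, adjusted p 0.0630), the highest of the 7497. Fibroblast array 2 has no Cxadr value, so the fibroblast mean rests on array 1. Each marker missed the threshold here and passed it in some alternatives, Gata6 and Wt1 in 5 of 14 and Cxadr in 3 of 11, with adjusted p-values from 0.0225 to 0.199 for each. Among the adherent arrays, the liver line and fibroblast array 2 share a run of image numbers with testis. The difference from the mean of those arrays was 3.84 for Gata6 and 3.93 for Wt1. The blood-cell lines, which did not enter the difference, had Gata6 values from -4.21 to -1.97, Wt1 values from -2.39 to -1.53 and Cxadr values from -3.49 to -0.72.

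**Figure D1:**
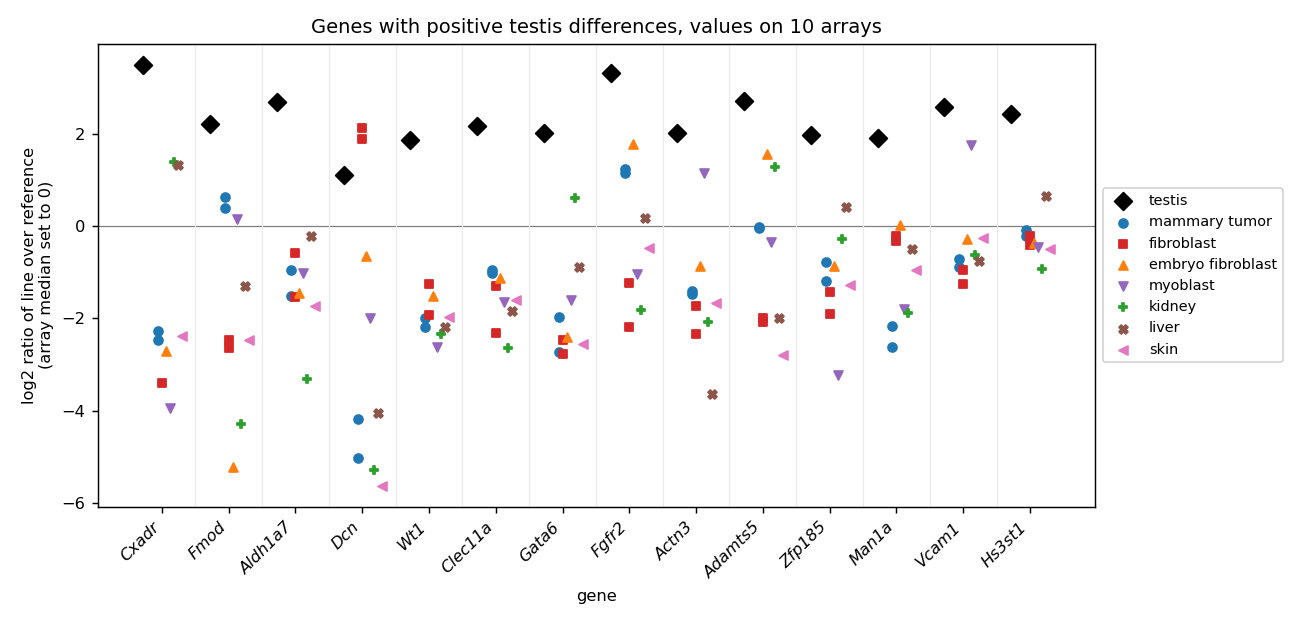
Centred log2 ratio of line over reference (vertical axis) on the testis array (black diamonds) and the 9 arrays of the 7 other adherent lines (coloured symbols) for 14 genes with positive differences, ordered from the largest difference (Cxadr, 5.22) to the smallest (Hs3st1, 2.73); each symbol is 1 array, and Cxadr lacks fibroblast array 2. The testis array is the highest for each gene except Dcn, where both fibroblast arrays (2.12 and 1.89) lie above the testis array (1.11).

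Fmod encodes fibromodulin, a small leucine-rich proteoglycan that binds collagen fibrils. Fmod had a log2 ratio of 2.21 on the testis array, against 0.40 and 0.62 on the mammary tumor arrays, -2.63 and -2.46 on the fibroblast arrays, -5.23 in embryo fibroblast, 0.14 in myoblast, -4.30 in kidney, -1.31 in liver and -2.48 in skin. Testis was above every other array, the mammary tumor and myoblast arrays were nearest, and the embryo fibroblast and kidney arrays were lowest. Fmod was 4.38 ± 0.34 higher in the testis line (20.9-fold, limma adjusted p 0.0388). It was called in 7 of the 12 alternatives that tested it, with adjusted p-values from 0.0203 to 0.185, and within the testis run of image numbers the difference was 4.09. The promoter window of Fmod, and those of Clec11a and Aldh1a7 (the 2 genes at 2 or more in testis and at or below 0 in the 7 other lines), are shown because these are the called gene and the genes that meet this rule. Each runs from 250 bases before the gene start to 50 after it, 5′ to 3′ on the strand of the gene, from RefSeq on GRCm38.p6. Capitals mark AGATAA, a short form of the motif that GATA factors bind, searched for on both strands (TTATCT on the other) after the Gata6 value was seen.
Fmod, chr1:134037004-134037303, plus strand: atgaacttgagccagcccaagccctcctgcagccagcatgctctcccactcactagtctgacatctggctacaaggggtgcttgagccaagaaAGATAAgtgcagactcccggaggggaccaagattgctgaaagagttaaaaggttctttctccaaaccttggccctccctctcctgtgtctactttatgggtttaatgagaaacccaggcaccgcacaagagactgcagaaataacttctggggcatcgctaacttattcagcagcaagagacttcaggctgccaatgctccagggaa
Clec11a, chr7:44306910-44307209, minus strand: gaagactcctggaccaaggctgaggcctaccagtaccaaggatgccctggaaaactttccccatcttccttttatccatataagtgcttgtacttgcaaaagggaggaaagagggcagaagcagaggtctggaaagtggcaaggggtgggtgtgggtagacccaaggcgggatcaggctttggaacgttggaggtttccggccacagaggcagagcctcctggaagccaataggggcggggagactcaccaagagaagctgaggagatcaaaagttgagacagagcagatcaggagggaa
Aldh1a7, chr19:20727507-20727806, minus strand: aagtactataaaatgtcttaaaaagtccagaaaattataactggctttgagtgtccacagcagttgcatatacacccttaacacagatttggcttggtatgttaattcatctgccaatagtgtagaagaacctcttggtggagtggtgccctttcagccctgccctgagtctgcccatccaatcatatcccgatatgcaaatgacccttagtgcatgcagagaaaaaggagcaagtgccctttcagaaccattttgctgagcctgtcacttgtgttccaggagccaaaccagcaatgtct
The Fmod window holds 1 match, at position -157 from the gene start, and the other windows hold 0. Of all 32851 promoter windows 3672 hold the motif (11.2%), as do 495 of the 5114 windows of array genes (9.68%) and 6 of the 79 windows of genes with a difference of 2 or more (7.6%). A match describes the letters of a window and not a bound site.

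Besides Fmod, the matrix genes with the smallest p-values were above the reference in 1 or 2 other lines too. Dcn encodes decorin, another small leucine-rich proteoglycan. Dcn had a log2 ratio of 1.11 on the testis array, against -5.02 and -4.18 on the mammary tumor arrays, 2.12 and 1.89 on the fibroblast arrays, -0.66 in embryo fibroblast, -1.99 in myoblast, -5.28 in kidney, -4.05 in liver and -5.63 in skin. The fibroblast arrays were above testis and 6 lines were below it, and the difference was 3.99 ± 0.50 (adjusted p 0.0588). Nid2, which encodes the basement membrane protein nidogen-2, was at 1.89 in testis, against 2.45 in myoblast and -1.11 to -3.85 on the 8 other arrays (difference 3.83 ± 0.57, adjusted p 0.0790). Adamts5 encodes a secreted protease that cleaves aggrecan. Adamts5 had a log2 ratio of 2.72 on the testis array, against -0.04 and -0.02 on the mammary tumor arrays, -2.08 and -2.001 on the fibroblast arrays, 1.57 in embryo fibroblast, -0.35 in myoblast, 1.29 in kidney, -1.99 in liver and -2.79 in skin. Testis was the highest, with embryo fibroblast and kidney next, and the difference was 3.34 ± 0.35 (adjusted p 0.0588, called in 5 of 14 alternatives). Timp3, a matrix-bound inhibitor of metalloproteases, was at 1.58 in testis and from -4.29 to 0.68 in the 7 other lines (3.05 ± 0.46, adjusted p 0.0819). Col12a1, a fibril-associated collagen, was at 1.65 in testis and was higher in myoblast (2.44) and on mammary tumor array 2 (2.28), with a difference of 2.57 ± 0.38 (adjusted p 0.0790).

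Growth factor receptors and ligands formed another set of large values. Fgfr2 encodes a receptor for fibroblast growth factors. Fgfr2 had a log2 ratio of 3.32 on the testis array, against 1.15 and 1.24 on the mammary tumor arrays, -2.20 and -1.24 on the fibroblast arrays, 1.79 in embryo fibroblast, -1.05 in myoblast, -1.82 in kidney, 0.17 in liver and -0.47 in skin. Testis was the highest, embryo fibroblast and mammary tumor came next, and the difference was 3.59 ± 0.44 (12.1-fold, adjusted p 0.0588). Igfbp4 encodes a binding protein of insulin-like growth factors. Igfbp4 had a log2 ratio of 1.44 on the testis array, against 1.22 and 2.13 on the mammary tumor arrays, -4.08 and -2.72 on the fibroblast arrays, -4.47 in embryo fibroblast, -4.13 in myoblast, -3.50 in kidney, -1.05 in liver and -4.50 in skin. Mammary tumor array 2 was above testis and the remaining 6 lines were below the reference. The difference was 4.21 ± 0.59 (adjusted p 0.0697). Igf1, the growth factor itself, was at 2.29 in testis and from -1.36 to 0.81 in the other lines (2.43 ± 0.38, adjusted p 0.0853). Pdgfra, a receptor for platelet-derived growth factors found on many mesenchymal cells, was at 1.76 in testis and from -2.23 to 0.22 in the other lines (2.88 ± 0.44, adjusted p 0.0853). A second Pdgfra probe gave a difference of 0.71 ± 0.83, so the probes of this gene disagree. Wnt4, a secreted signal of the developing ovary and kidney, was at 1.43 in testis, close to the liver line (1.14), and from -3.05 to -1.15 in the 6 other lines (2.92 ± 0.47, adjusted p 0.0982). Fst, which encodes the activin-binding protein follistatin, was at 2.26 in testis and from -1.88 to 1.28 elsewhere (2.76 ± 0.59, adjusted p 0.180).

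Cell surface and cytoskeletal genes were also among the smallest p-values. Vcam1, an adhesion molecule that binds integrins, was at 2.57 in testis and from -1.10 to 1.75 in the other lines, with myoblast the highest of them (2.87 ± 0.36, adjusted p 0.0588). Its probe lies in the stretch of low probe numbers described further on, and the difference was 2.28 with the trend removed. Actn3, an alpha-actinin of fast skeletal muscle fibres, was at 2.02 in testis, 1.16 in myoblast and from -3.64 to -0.86 in the remaining 6 lines (3.52 ± 0.41, adjusted p 0.0588). Zfp185 encodes an actin-associated LIM domain protein and was at 1.97 in testis and from -3.23 to 0.40 elsewhere (3.10 ± 0.40, adjusted p 0.0589). Ddr1, a receptor tyrosine kinase that binds collagen, was at 2.48 in testis and from -2.74 to 0.87 elsewhere (3.01 ± 0.64, adjusted p 0.180).

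Enzymes and secreted factors closed the group of positive differences. Aldh1a7 encodes an aldehyde dehydrogenase closely related to the retinaldehyde dehydrogenase Aldh1a1, and whether its probe tells them apart was not tested. Aldh1a7 had a log2 ratio of 2.69 on the testis array, against -0.96 and -1.51 on the mammary tumor arrays, -0.59 and -1.53 on the fibroblast arrays, -1.46 in embryo fibroblast, -1.01 in myoblast, -3.32 in kidney, -0.22 in liver and -1.74 in skin. No other array was above the reference, and the difference was 4.12 ± 0.51 (17.4-fold, adjusted p 0.0588). Clec11a encodes a secreted C-type lectin that acts as a growth factor for blood and bone progenitors. Clec11a had a log2 ratio of 2.16 on the testis array, against -0.96 and -1.01 on the mammary tumor arrays, -2.32 and -1.30 on the fibroblast arrays, -1.13 in embryo fibroblast, -1.65 in myoblast, -2.65 in kidney, -1.84 in liver and -1.61 in skin. The 9 other arrays lay between -2.65 and -0.96, and the difference was 3.83 ± 0.50 (14.2-fold, adjusted p 0.0589). These 2 genes were the only features at 2 or more in testis with the 7 other lines at or below 0 (0.0267% of 7497). The same rule found 15 features for myoblast, 6 for liver, 5 for embryo fibroblast, 2 for kidney and 0 for mammary tumor, fibroblast and skin. Hs3st1, a heparan sulfate sulfotransferase, was at 2.43 in testis and from -0.93 to 0.65 in the other lines (2.73 ± 0.34, adjusted p 0.0588). Man1a, a Golgi mannosidase that trims N-glycans, was at 1.91 in testis and from -2.39 to 0.02 in the other lines (3.02 ± 0.36, adjusted p 0.0588).

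The lower side held 1 called feature, probe 4782, to which the platform annotation gives no gene. Probe 4782 had a log2 ratio of -5.85 on the testis array, against -0.43 and -0.20 on the mammary tumor arrays, 2.12 and 1.39 on the fibroblast arrays, -1.48 in embryo fibroblast, -0.41 in myoblast, -6.62 in kidney, -1.04 in liver and -0.11 in skin. Testis and kidney were both more than 5 log2 units below the reference, kidney the lower, and the fibroblast arrays were the highest. The difference from the mean of the 7 lines was -4.68 ± 0.40 (limma adjusted p 0.0388), or -6.03 within the testis run of image numbers. Of the blood-cell lines, which did not enter the difference, T-cell lymphoma was at -5.93, the myeloma arrays at -4.68 and -4.86, and macrophage at 1.85. A low value of this probe is thus not particular to testis. Probe 4782 was called in 7 of 14 alternatives, with adjusted p-values from 0.0203 to 0.185. Ank encodes a membrane protein of pyrophosphate transport that restrains mineral deposits. Ank had a log2 ratio of -4.12 on the testis array, against 0.25 and 0.67 on the mammary tumor arrays, 1.41 and 2.54 on the fibroblast arrays, -0.001 in embryo fibroblast, -1.36 in myoblast, -1.26 in kidney, -0.41 in liver and -0.09 in skin. Testis was the lowest, myoblast and kidney came next, and the difference was -4.02 ± 0.48 (adjusted p 0.0588). Ctps2, a CTP synthase, was at -2.46 in testis and from -0.57 to 0.74 in the other lines (-2.72 ± 0.34, adjusted p 0.0588). Rpsa, which encodes a small-subunit ribosomal protein, was at -2.71 in testis and from -1.41 to 1.10 elsewhere (-2.93 ± 0.34, adjusted p 0.0588). A second Rpsa probe gave -0.19 ± 0.40, and the gene has many near-identical pseudogenes, so its value is uncertain.

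Several adhesion and cytoskeletal genes were lowest in the testis line. Parvb, which encodes the focal adhesion protein beta-parvin, was at -3.38 in testis and from -1.72 to 0.03 elsewhere (-2.67 ± 0.36, adjusted p 0.0630). Fhl2 encodes a LIM domain cofactor of muscle and adhesion sites. Fhl2 had a log2 ratio of -2.999 on the testis array, against 2.01 and 1.98 on the mammary tumor arrays, -1.51 and -1.90 on the fibroblast arrays, 1.23 in embryo fibroblast, 1.54 in myoblast, 1.21 in kidney, -1.05 in liver and 0.84 in skin. Fibroblast and liver were also below the reference while mammary tumor, embryo fibroblast, myoblast, kidney and skin were above it (-3.58 ± 0.49, adjusted p 0.0642). Ccn3, a secreted matricellular protein, was at -3.88 in testis and reached 2.26 in fibroblast, with embryo fibroblast (-2.89) nearest to testis (-3.14 ± 0.44, adjusted p 0.0697). Adgre5, an adhesion receptor of the G protein-coupled class, was at -2.56 in testis, with embryo fibroblast (-2.10) nearest and kidney (1.23) highest (-2.67 ± 0.35, adjusted p 0.0589). The neural progenitor intermediate filament gene Nes was at -3.06 in testis and from -1.87 to 2.81 elsewhere (-3.46 ± 0.59, adjusted p 0.0988, and -3.96 with the trend along the probe number removed). The remaining genes named by p-value on the lower side were Svep1 (-2.97 ± 0.44), Sh3gl3 (-2.96 ± 0.43), Ackr3 (-2.22 ± 0.37) and Pparg (-1.96 ± 0.34), with adjusted p-values between 0.0756 and 0.103, and each was lowest in testis.

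**Figure D2:**
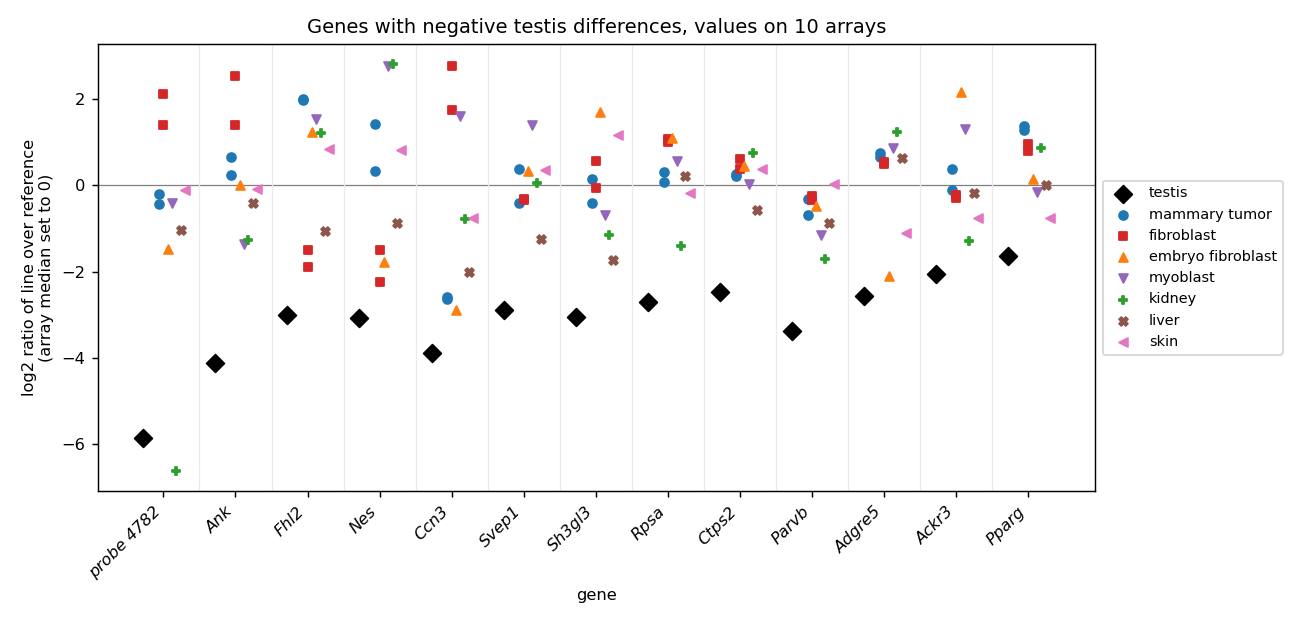
Centred log2 ratio of line over reference (vertical axis) on the testis array (black diamonds) and the 9 arrays of the 7 other adherent lines (coloured symbols) for 12 genes and the unnamed probe 4782, all with negative differences, ordered from the largest (probe 4782, -4.68) to the smallest (Pparg, -1.96); each symbol is 1 array. The testis array is the lowest in each column except that of probe 4782, where kidney (-6.62) lies below testis (-5.85).

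Over all features, testis was above the 7 other lines for 1205 (16.1%) and below them for 1113 (14.8%). It was above by 1 or more for 92 (1.23%) and below by 1 or more for 37 (0.494%). The same margin upward was met by 148 features in myoblast, 100 in embryo fibroblast, 76 in kidney, 50 in liver, 37 in fibroblast, 30 in mammary tumor and 16 in skin. Downward it was met by 178 in embryo fibroblast, 122 in myoblast, 92 in kidney, 62 in liver, 51 in skin, 21 in fibroblast and 20 in mammary tumor. Testis, fibroblast, mammary tumor and myoblast had more features above by that margin than below, and embryo fibroblast, kidney, liver and skin had more below. Tested in the same way against the other adherent lines, fibroblast had 67 calls, embryo fibroblast 60, myoblast 50, mammary tumor 44, testis 2, kidney and liver 1 each and skin 0. Fibroblast and mammary tumor have 2 arrays each and the other lines 1, so these counts are not on an equal footing. At an unadjusted limma p under 0.05 the counts ran from 582 (skin) to 1087 (embryo fibroblast), with 852 each for testis and fibroblast. The SD of the differences was 0.76 for testis and 0.62 for fibroblast. A difference of 2 or more was found for 110 features (1.47%) and of -2 or less for 36 (0.48%).

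The label was set against markers of testicular cells. No member of any gene list passed the adjusted threshold of 0.05 in limma, so each list is described by its median difference and by its probes at an unadjusted p under 0.05, against 5.82% higher and 5.55% lower over all features, a median of 0.04 and 16.1% above all 7 lines. In the list counts that follow, higher and lower mean a positive or negative difference at that p. Lists share members, Cxadr being in the Sertoli, epithelial and adhesion lists. Of 53 Sertoli probes (48 genes), 10 were higher and 6 lower, with a median of 0.38, and 13 were above all 7 lines. The 3 given markers were picked with earlier results of these data known, so they are no independent support for the label. The positive members besides Gata6, Wt1 and Cxadr included Gas6, the ligand of the Axl and Mer receptors (2.64), Trf, the transferrin gene (1.68, and 0.51, 0.55 and 0.60 for its other probes), and Kitl, the ligand of the Kit receptor (1.63 and 0.88 for its probes). Gas6 was far below the reference in testis too, at -3.28, and the 7 lines averaged -5.92. Clu, a secreted chaperone (2.15), Emx2, a homeobox gene of the urogenital ridge (1.30), Cited2, a transcriptional co-regulator (1.52), and the first Kitl probe have low probe numbers and were at 1.498, 0.30, 0.61 and 1.05 with the trend removed. A second Clu probe gave 0.48, and within the testis run of image numbers the first gave -0.30. Sox9, the transcription factor that sets Sertoli fate, had a negative difference (-1.66), at -1.95 in testis, while the 7 lines averaged -0.30. Negative differences were also found for Gdnf, the growth factor for spermatogonial stem cells (-1.998), Rhox5, a homeobox gene of Sertoli cells (-1.24), Ctsl, a protease gene (-2.37), and Vim, an intermediate filament gene (-1.79). Amh, the Müllerian inhibiting hormone, was at 0.17 in testis against a mean of -0.49 (0.66), and Fshr, the follicle-stimulating hormone receptor, at 0.47 against 0.02 (0.45). Gata4, a further gonadal GATA factor, was at 0.75 against 0.23 (0.52) and Dmrt1 at 0.86 against 0.45 (0.40), and Amh, Fshr, Gata4 and Dmrt1 had unadjusted p-values above 0.05.

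Of 18 Leydig and steroidogenesis probes, 4 were higher and 0 lower (median 0.22), namely Vcam1, Pdgfra, Igf1 and Cyp21a1. None of these 4 is an enzyme of testosterone synthesis. Cyp21a1, an adrenal steroid hydroxylase, was at 1.30, or 0.25 with the trend removed. The cholesterol transfer gene Star was at 0.37 in testis against a mean of -0.83, a difference of 1.20 with an unadjusted p of 0.152. Differences were 0.16 for Cyp11a1, -0.003 for Cyp17a1, -0.15 for Hsd3b1, 0.04 for Hsd17b3 and 0.48 for Nr5a1, the nuclear receptor that drives steroidogenic genes. Of 41 germ cell and pluripotency probes, 1 was higher and 0 were lower (median 0.14). That one was Sox2, at 1.39, or 0.45 with the trend removed. Ddx4, an RNA helicase of germ cells, was at -1.48 in testis against -0.95 (-0.53), and the sperm protamine and transition protein genes Prm1, Prm2 and Tnp1 were at 0.03, 0.92 and -0.04. Of 13 peritubular and smooth muscle probes, 2 were higher and 2 lower (median -0.37). The higher ones, Mylk and Flna, both have low probe numbers, at 1.21 and 1.51, or 0.37 and 0.995 with the trend removed, and a second Flna probe gave -1.11. Tagln, an actin-binding gene of smooth muscle, was among the lower at -1.63, but testis (-3.02) lay above 4 of the 7 lines, with myoblast (3.46), kidney (0.84) and embryo fibroblast (-0.26) the highest. Its difference was 0.12 from the median of the 7 lines and 0.19 within the testis run of image numbers. The 3 given markers, picked with earlier results known, stood above the other lines. Of the Sertoli probes 10 were higher and 6 lower, Sox9 among the lower. Amh, Fshr, Gata4 and Dmrt1 did not reach an unadjusted p under 0.05. No germ cell gene besides Sox2 and no steroidogenic enzyme gene besides Cyp21a1 had an unadjusted p under 0.05.

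Markers of other cell types were examined in the same way. Of 31 leukocyte probes, 3 were higher and 0 lower (median -0.01), and their testis values ran from -4.00 to 0.97 with a median of -1.70, against a median of -1.88 for the means of the 7 lines. Ptprc, the pan-leukocyte phosphatase CD45, was at -3.13 in testis and -3.58 in the other lines. Of 16 endothelial probes 1 was higher (Pecam1, 1.34) and 0 lower (median 0.24), and of 31 striated muscle probes 0 were higher and 3 lower (median -0.44). The highest difference on the striated muscle list was 0.71. Actn3, the skeletal muscle gene given above with a difference of 3.52, is not on that list. Of 35 epithelial probes, 6 were higher and 3 lower (median -0.02). The 6 were Cxadr, Ddr1, the tight junction gene F11r (1.83), Jup (1.67), Pard6b (1.62) and Dsc2 (1.29). The 3 were Pkp1 (-1.91), Itga6 (-1.70) and Spint2 (-1.55). Krt8, a simple-epithelium keratin gene, was at -3.09 in testis against a mean of -2.25, with an unadjusted p above 0.05. Testis lay above 3 of the 7 lines for Krt8, and liver was the highest (2.535). Of 12 mesothelial probes, 3 were higher and 1 lower (median 0.44). The 3 were Wt1, Bnc1 (1.82) and Nkain4 (1.31). The defining mesothelial marker Msln, mesothelin, was at -1.33 in testis, with a difference of -1.498. The part of other cell types in the differences was not tested. In RNA of a whole culture, fewer cells with a transcript and less of it per cell cannot be told apart.

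The matrix and fibroblast list had a median of 0.56 over 69 probes, the highest of the lists without trend removal (0.42 with it, against 0.44 for the mesothelial list). At the unadjusted p 18 were higher and 3 lower. Testis was above all 7 lines for 8 of the 69, a smaller share than the 16.1% over all features. Besides Dcn, Igfbp4, Col12a1, Timp3 and Pdgfra, the interstitial collagen genes Col1a1 (2.53), Col3a1 (3.62) and Col6a1 (2.64), the insulin-like growth factor binding protein gene Igfbp3 (2.08), the lysyl oxidase family gene Loxl2 (2.36) and the collagen chaperone gene Serpinh1 (2.10, and 1.04 for its other probe) had positive differences. The 3 lower members were Vim (-1.79), Col6a3 (-1.57, and -0.56 and -0.08 for its other probes) and the secreted protease gene Htra1 (-2.61). Of 35 basement membrane probes, 2 were higher (Nid2 and Col4a5) and 2 lower (Gpc1 and Lama4), with a median of 0.05. Of 50 protease and inhibitor probes 7 were higher and 3 lower (median 0.08).

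Of 50 probes for gonadal and developmental transcription factors, 14 were higher and 4 lower (median 0.29), and 15 were above all 7 lines. Of the 14, 5 have low probe numbers (Meis2, Gata2, Hoxa5, Emx2 and Nr2f6), and with the trend removed Hoxa5 was at 0.57 in place of 1.51 and Nr2f6 at 0.04 in place of 0.96. Zfpm1, the GATA cofactor FOG1, was at 1.32 in testis and from -1.19 to 0.09 in the other lines (1.97 ± 0.35, adjusted p 0.118). Meis2, a homeobox cofactor of Hox proteins, was at 1.98 in testis and at most 0.39 elsewhere (2.24 ± 0.44), with 1.33 after the trend was removed. Sox11 (2.56), Gata2 (1.88, or 0.93 with the trend removed) and Hoxb7 (1.37) were also positive, while Foxc1 (-1.61), Pbx3 (-1.14) and Tbx3 (-1.12) were negative. The probes of Esr1, the oestrogen receptor, disagree, at 1.47, -0.49 and -0.37. Of 32 retinoid probes 5 were higher and 2 lower (median 0.26). They include Dhrs3, a retinaldehyde reductase (2.60 ± 0.48), and Fabp5, a fatty acid and retinoic acid binding protein (-2.42 ± 0.43). The 6 probes of Rara, a retinoic acid receptor, gave 2.14, 2.17, 1.09, 1.12, -0.29 and 0.37 and so disagree, and the first, in the stretch of low probe numbers, was at 1.16 with the trend removed.

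Of 68 growth factor probes 13 were higher and 4 lower (median 0.28), and of 51 TGF-beta, BMP and activin probes 8 were higher and 3 lower (median 0.04). The ligand genes Tgfb2 (2.08) and Bmp4 (2.11) and the antagonist genes Fst (2.76) and Grem1 (2.19, or 1.71 with the trend removed) were positive, while Ltbp1, which stores latent TGF-beta in matrix, was at -1.39. Of 60 Notch, Wnt and Hedgehog probes 5 were higher and 3 lower (median -0.09), with the Notch ligand gene Jag1 at 2.53 (no value on fibroblast array 2) and Wnt10a at -1.39. For Wnt10a, testis (-2.52) lay above 3 of the 7 lines, and the difference from the median of the 7 lines was -0.39. Of 57 adhesion probes 7 were higher and 4 lower (median 0.10), including Nectin2 (2.25 ± 0.37), a cell contact protein, and Cd151, a tetraspanin (2.81 ± 0.43, or 1.91 with the trend removed). Itga6, a laminin receptor subunit, was at -1.70 ± 0.35.

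Of 61 cell cycle probes 6 were higher and 8 lower (median -0.07). The lower ones included Rb1 (-1.59), the Cdk inhibitor genes Cdkn1a (-1.53) and Cdkn2a (-1.74) and the cyclin gene Ccnd1 (-1.49), while Cdk2 (1.64) and Cdkn1b (1.61) were positive. Of 11 cholesterol synthesis probes 0 were higher and 3 lower (median -0.38), and testis was below all 7 lines for 6 of the 11, against 14.8% of all features. The 3 were Fdft1 (-1.40), Nsdhl (-1.17) and Sqle (-1.04). With the trend removed they were at -1.28, -1.06 and -0.72, and the list median was -0.45. Some members have neighbouring probe numbers, such as Fdft1 and Nsdhl (4063 and 4064) and Dhcr7 and Sqle (5031 and 5032). The part of position in this list was not tested. Of 21 interferon and MHC probes 0 were higher and 1 was lower, Psmb8, at -1.46 and at -0.18 for its second probe (median -0.23). Of 27 glycolysis probes 4 were higher and 1 lower (median -0.06), with Ldhb, a lactate dehydrogenase subunit, at 1.63.

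**Figure D3:**
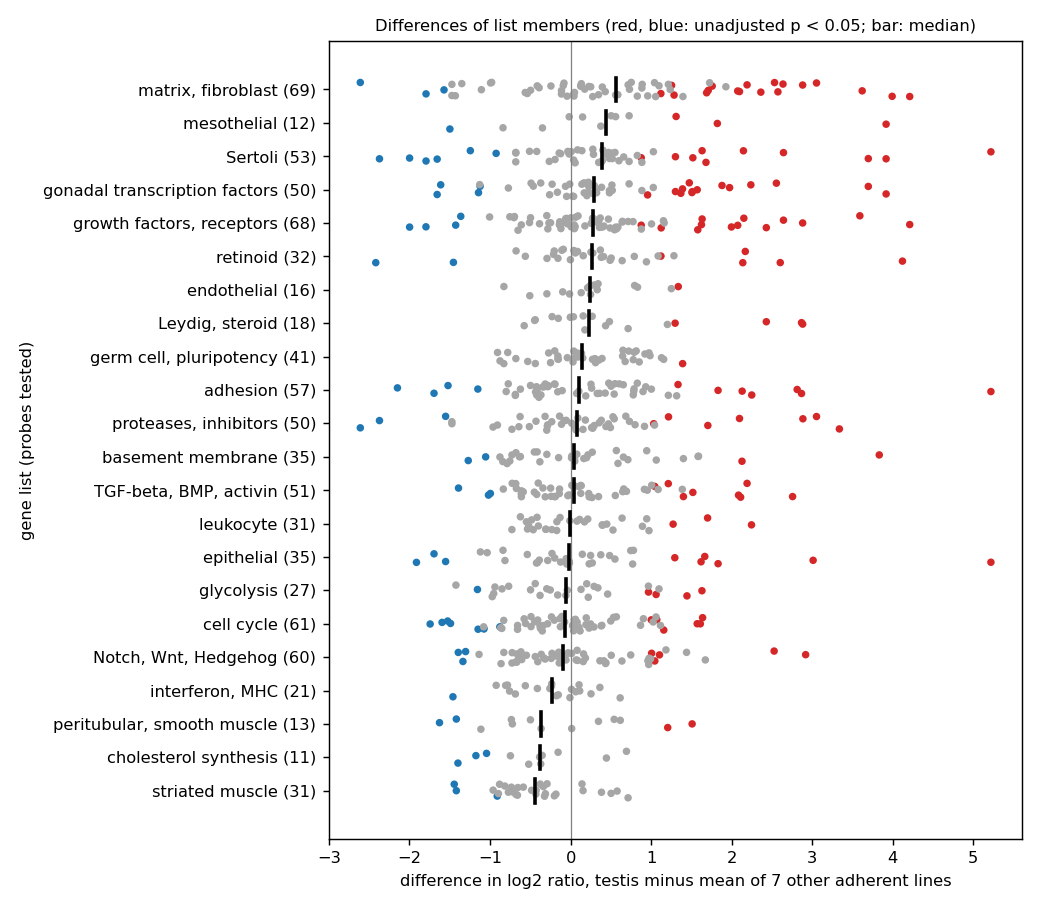
Difference in log2 ratio, testis minus the mean of the 7 other adherent lines (horizontal axis), for the tested probes of each of 22 gene lists (number of probes in brackets), with 1 point per probe, coloured at an unadjusted p under 0.05 (red positive, blue negative), and a bar at each list's median. Medians run from 0.56 for the matrix and fibroblast list to -0.44 for the striated muscle list, and the single points furthest right are Cxadr at 5.22.

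On the testis array the log2 ratio moved along the probe number. Among the 421 features with probe numbers up to 440 (5.62% of those tested), a boundary chosen after the values were seen, the median log2 ratio was 0.87 in testis, against -0.23 (myoblast) to 0.33 (embryo fibroblast) in the other lines. The median difference was 0.79 there and 0.01 over the 7076 other features. With the trend along the probe number removed from each array, it was 0.05 there. This stretch held 15 of the 110 features with a difference of 2 or more, and 2 of 100 after removal. It also held 20 of the 92 features above all other lines by 1 or more and 5 of the 40 at an adjusted p under 0.1. Gata6, Wt1, Cxadr and Fmod have higher probe numbers, and their differences were 3.97, 4.09, 5.18 and 4.29 with the trend removed. A further rise of the testis array, to a median of 1.01 at probe numbers 2001 to 2080, was shared by kidney (1.003), fibroblast (0.88) and embryo fibroblast (0.75). Igf1 and Ddr1 have probe numbers near that rise (1949 and 2251), and their differences were 2.05 and 2.70 with the trend removed. Foxm1 (2017) and Cdk2 (2240) lie there too. The testis median also fell in places. It was -0.55 at probe numbers 3201 to 3280, where myoblast was at 0.51, and -0.45 at 5201 to 5280, where fibroblast was at -0.46. Fabp5, at probe number 3285, had a difference of -2.03 with the trend removed, in place of -2.42. The part of position in the differences was not tested beyond this removal.

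**Figure D4:**
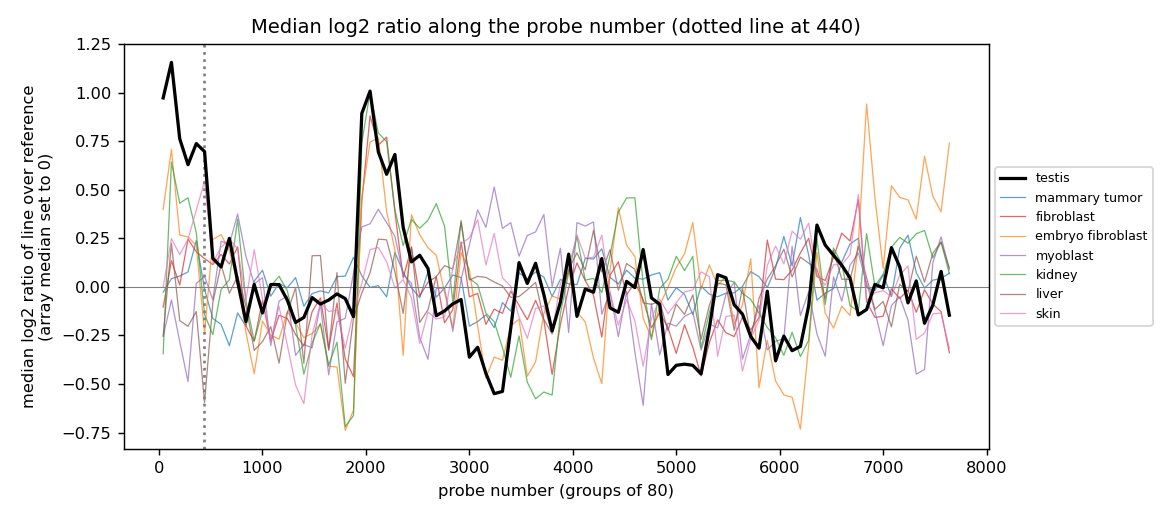
Median centred log2 ratio of line over reference (vertical axis) in consecutive groups of 80 probe numbers (horizontal axis) for testis (thick black line) and the 7 other adherent lines (thin lines). Below probe number 440 (dotted line) the testis median is 0.87 over the whole stretch, and no other line's median over that stretch exceeds 0.33, although single groups reach 0.71 in embryo fibroblast and 0.64 in kidney.

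Across the features, which are not independent replicates, the testis array correlated most with fibroblast array 1 (Pearson's r 0.379), kidney (0.363) and mammary tumor array 1 (0.352). The value was 0.238 for embryo fibroblast, 0.222 for liver, 0.218 for skin, 0.217 for mammary tumor array 2, 0.097 for myoblast and 0.056 for fibroblast array 2. These arrays share the reference channel and the array design. The arrays of the fibroblast line differed from each other in their likeness to testis, and they correlated with each other at 0.379, against 0.666 for the mammary tumor pair. Fibroblast array 2 and liver belong with testis to 1 run of image numbers in the labels, and fibroblast array 1 to another. With the trend along the probe number removed, r with testis was 0.315 for fibroblast array 1, 0.064 for fibroblast array 2, 0.347 for kidney and 0.376 for mammary tumor array 1, so that mammary tumor array 1 and not fibroblast array 1 came first.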

How the data were processed

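The authors deposited 1 value table of log2 ratios, 1 value for each of 7680 spots and each of 14 arrays. Its scale was judged from the values. The authors' background correction, normalization and spot filters are steps not given in the sources used here. Of 107520 cells 423 were empty. The 80 Gapdh spots were averaged, which left 7601 features, and each array's median was set to 0. The platform annotation gave 6835 probes 1 gene symbol and 4 probes several, and 841 probes were unlisted. Current symbols were taken from RefSeq (GRCm38.p6) for 6809 probes. Each probe of a gene was tested on its own. All sample columns were used.

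Tests used limma 3.58.1 in R 4.3.3 (lmFit and eBayes, two-sided, Benjamini-Hochberg over 7497 features covering 6467 named genes) in 1 fit over all 14 arrays, in which the blood-cell lines add to the spread but have no weight in the contrast. The mammary tumor, fibroblast and myeloma pairs gave 3 residual degrees of freedom, to which moderation added 3.75, and the spread of the lone testis array was taken to equal that of the pairs. The mammary tumor arrays lie in different runs of image numbers, as do the fibroblast arrays, while both myeloma arrays lie in the run of testis. The error therefore mixes spread within and between runs. The median residual SD was 0.43. Errors are standard errors of this fit. Plots were made in Python 3.11.15 with matplotlib 3.10.9. The script was tested on simulated data.

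The genes named were the 3 markers, the called features, filled to 12 genes in each direction by p-value, the called or up to 4 lowest-p members of 22 textbook gene lists, and the genes at 2 or more in testis and at or below 0 in the 7 other lines, 95 entries in all. Further list members were named after their values were seen. Members, lists and alternatives were chosen with earlier results of these data known. Alternatives covered centring, quantile normalization, the arrays in the fit, the run of image numbers, missing values, the trend along the probe number, robust moderation, the median in place of the mean, and each paired array left out.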

Additional observations from a re-analysis of the deposited data

How the results depend on the processing

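The number of calls, 2 as reported, was 2 without centring and 2 with robust moderation. It was 0 with the 10 adherent arrays alone (lowest adjusted p 0.146), 0 over the 7282 features measured on all 14 arrays (0.0545) and 0 with the image run as a fixed block over 4 connected lines (0.178, with 1 residual degree of freedom). It was 16 with the image run as a random block (11 higher, 5 lower, estimated correlation 0.456), 25 with the probe number trend removed (17 higher, 8 lower) and 33 with quantile normalization (20 higher, 13 lower). Leaving out 1 paired array gave 0 to 31 calls, with 0 for each mammary tumor and each myeloma array, and 31 and 25 for fibroblast arrays 1 and 2. The cause of these shifts was not tested. Leaving out 1 paired array, or all blood-cell lines, lowered the residual degrees of freedom from 3 to 2, and the counts moved in both directions. The fit over features measured on all 14 arrays kept 3 and did not include Fmod, and probe 4782 had a limma adjusted p of 0.0545 there. Fmod and probe 4782 were called in each of the 7 alternatives that made calls, and Fmod could not be tested in 2 alternatives, having no value on the T-cell lymphoma array. Over 1506 combinations of a named gene and an alternative, 1327 were unchanged, 101 moved past the threshold and 12 lost it. Another 65, all untested values, moved by more than the median residual SD. Unchanged means the same direction and side of the threshold, or, for untested values, a move smaller than that SD. Most named genes had not passed the threshold to begin with. The sign turned in 4: Bves was at 0.51 with the image run as a fixed block, against -0.88, Tagln at 0.12 from the median of the 7 lines and 0.19 within the testis run, against -1.63, and Tpm2 at 0.00075 within that run, against -1.42. The cause was not tested. No paired analysis was made, because the testis line has 1 array and the replicate numbers only count the arrays within a line. A single testis array, no dye exchange and an unstated log base limit every value.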

Other observations

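Genes outside the rule for named genes, picked after their values were seen, included Frmd4b, which encodes a FERM domain scaffold protein and had the second-highest difference of all features, at 2.31 in testis and from -3.81 to 0.42 in the 7 other lines (4.47 ± 0.63, limma adjusted p 0.0697). Ryr3, an intracellular calcium release channel, was at 2.11 in testis and from -2.49 to 0.58 in the other lines (3.41 ± 0.45, adjusted p 0.0589), and a second Ryr3 probe gave 0.84 ± 0.69. Folr1, a folate receptor, was at 1.805 in testis and from -2.06 to -0.65 in the other lines (2.89 ± 0.48, adjusted p 0.0982). Lpl, which encodes lipoprotein lipase, was at 2.06 in testis and from -1.90 to 0.64 elsewhere (2.56 ± 0.40, adjusted p 0.0903). Ahr, the aryl hydrocarbon receptor, was at 2.02 in testis and from -1.33 to 0.70 elsewhere (2.64 ± 0.39, adjusted p 0.0791). The signalling genes Fgf18, a fibroblast growth factor (2.41 ± 0.38), and Spry1, a feedback inhibitor of receptor tyrosine kinases (2.15 ± 0.36), had adjusted p-values of 0.0922 and 0.0982. None of these genes passed an adjusted p of 0.05.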
